A study of Homo sapiens with 12 samples.

Results

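AICAR was compared with no drug in LNCaP cells, an androgen-sensitive human prostate cancer cell line, on 4 of the 12 arrays of the series. These 4 were taken by their labels as all arrays that carry RNA of AICAR-treated cells in one channel and RNA of control cells in the other. Treated cells received 5 mM AICAR for 24 h and control cells no drug, in 2 independent cultures, and every extract has a stated RNA integrity number of 9. Each pair of extracts was hybridized on 2 arrays with the Cy3 and Cy5 dyes exchanged. The other 8 arrays compared metformin (5 mM, 24 h) with control cells or with AICAR in the same cultures, and those with AICAR are used below for a direct comparison of the drugs. All groups are of this 1 established line, and the cultures are the replicates.

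AICAR is a nucleoside that cells take up through nucleoside transporters and phosphorylate with adenosine kinase to ZMP, a nucleotide that resembles AMP. ZMP activates AMPK, the kinase that answers to a low energy charge by restraining mTORC1 and the synthesis of lipids and proteins and by raising catabolism. ZMP is itself an intermediate of purine synthesis, and AICAR is known to act on nucleotide metabolism and other enzymes besides AMPK.

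The deposited values are normalized log ratios without intensities, taken as log2 ratios of the Cy5 to the Cy3 channel as limma writes them, and which side is called higher depends on that and on the labelled dyes. All ratios were turned to AICAR over control, so a positive value means more mRNA with AICAR. They are relative to the centre of each array, and the levels of the LNCaP markers themselves are not shown by ratios. In such bulk RNA, fewer cells that express a gene and less RNA per cell cannot be told apart. The 2 arrays of a culture were averaged, SE is the moderated standard error over the 2 cultures from limma, whose precision is limited by the number of arrays. Where 4 array values are given for a gene, culture 1 comes before culture 2, and within each the array with AICAR in Cy3 comes before that with AICAR in Cy5.

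With AICAR, far more transcripts were lower than higher. Of 24541 transcripts, 794 (3.24%) were lower and 148 (0.603%) were higher than in control cells, at an adjusted p below 0.05 in limma and a log2 ratio beyond 0.7, which is a fold of 1.62. Among the 14486 named genes, 553 (3.82%) were lower and 112 (0.773%) higher, and these shares are the background for each group of genes below. Lower transcripts made up 84.3% of all calls although the median ratio of all transcripts was 0.04. Of the named genes, 59.6% had a positive ratio, and counts of signs in a group below stand beside that share. The log2 ratio was below -1 for 437 transcripts and above 1 for 66, and below -2 for 35 against 7 above 2. Of the 942 calls, 930 had the same sign on all 4 arrays. Across transcripts, which are not independent replicates, the ratios of the 2 cultures correlated at 0.679, and dye-swap partners at 0.425 in culture 1 and 0.519 in culture 2.

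The slide number of the culture 1 array with AICAR in Cy5 stands apart from those of the other 3 arrays. The calls fell most when this array was left out, to 191 transcripts lower and 21 higher. A fit without 1 array keeps its dye-swap partner alone, so the dye no longer cancels in that culture. Without the culture 2 array with AICAR in Cy5, 964 were lower and 282 higher, and without that with AICAR in Cy3, 585 and 96. Of 163 named genes past the test that were followed one by one, 50 passed whichever single array was left out, and they are called steady below. The word does not cover other settings. With arrays scaled to a common spread 91 of the 163 no longer passed, and 36 passed under every setting, single probes aside. In a fit of all 12 arrays with the culture as a replicate block, 31 of the 163 no longer passed, and the values of those named here are given with their groups. A slide number is not known to be a batch of preparation, and its part in the results was not tested.

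**Figure D1:**
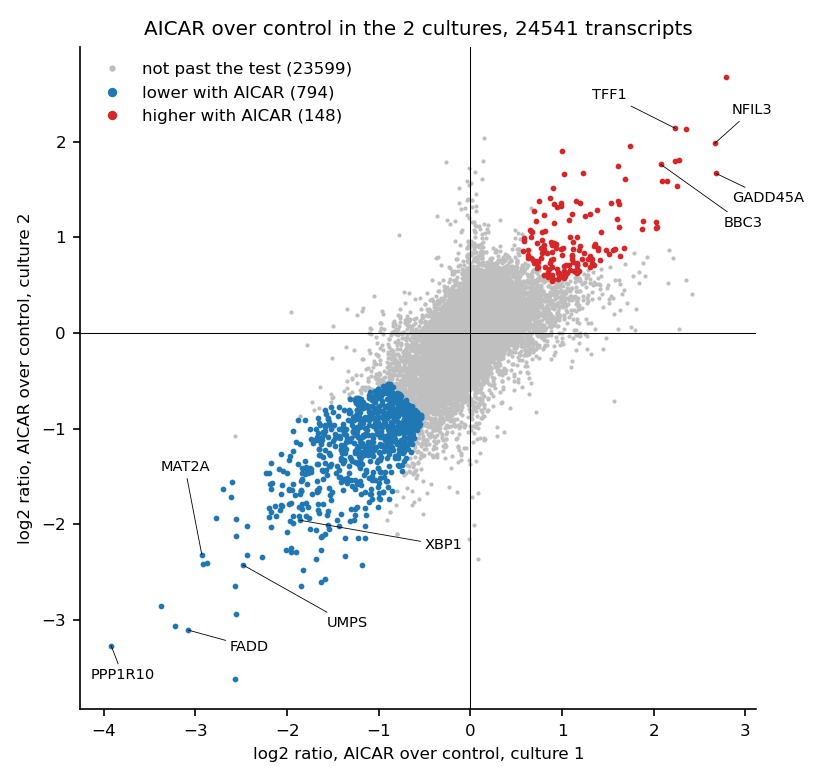
Log2 ratio of AICAR over control in culture 1 (horizontal) and culture 2 (vertical), each the mean of 2 dye-swap arrays, for 24541 transcripts. The 794 lower (blue) and 148 higher (red) transcripts lie in opposite corners, and the lower ones reach farther from 0 than the higher ones.

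The gene that rose most was NFIL3, a basic leucine zipper repressor that acts on D-box promoters. Its log2 ratios on the 4 arrays were 3.18, 2.15, 2.09 and 1.87, with a mean of 2.32 (SE 0.18, n = 2 cultures, adjusted p = 0.0101 in limma), a fold of 5.01. TFF1, a small secreted trefoil protein, had 2.41, 2.07, 2.19 and 2.08, which differ little, and a mean of 2.19 (SE 0.10, adjusted p = 0.00759 in limma). The 4 arrays of TFF1 overlap between the cultures, whereas the culture 1 arrays of GADD45A lie above both culture 2 arrays. GADD45A, a growth arrest and DNA damage gene, had 2.87, 2.49, 1.66 and 1.67, with a mean of 2.17 (SE 0.25, adjusted p = 0.0199 in limma). KLF6, a Krüppel-like transcription factor, had 2.03, 2.44, 1.79 and 1.80 (mean 2.02), and its relative KLF10 had 2.32, 1.74, 1.24 and 1.08 (mean 1.59). SUSD6 followed at 2.04. BBC3, which encodes the BH3-only killer protein PUMA, had 2.12, 2.03, 1.89 and 1.63, with a mean of 1.92 (SE 0.12, adjusted p = 0.00773 in limma).

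The other genes among the 15 highest act in diverse places. They were the RNA-binding protein KHDC4 (1.89), OSER1 (1.87), the Mediator subunit MED30 (1.84), the ubiquitin ligase receptor FBXW7 (1.68), the actin-capping subunit CAPZA2 (1.57), the cytokinesis kinesin KIF23 (1.56), the RNA-binding ubiquitin ligase MEX3C (1.53) and SCAF4 (1.50), which binds the tail of RNA polymerase II. Of the 15, 8 were steady, among them NFIL3, TFF1, KLF6, BBC3 and FBXW7. Of these 8, NFIL3, SUSD6 and MED30 did not pass with arrays scaled to a common spread. Without the culture 1 array with AICAR in Cy5, GADD45A (2.27), KHDC4 (2.05), OSER1 (2.06), KLF10 (1.74), CAPZA2 (1.69), KIF23 (1.57) and MEX3C (1.60) no longer passed. CAPZA2 (1.61) also did not pass with the replicate block.

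The gene that fell most was PPP1R10, the nuclear targeting subunit of protein phosphatase 1. Its log2 ratios were -3.62, -4.22, -2.81 and -3.72, with a mean of -3.59 (SE 0.18, n = 2 cultures, adjusted p = 0.00759 in limma), 12.1-fold below control. FADD, the adaptor that couples death receptors to caspase-8, had -2.97, -3.19, -3.05 and -3.16, with a mean of -3.09 (SE 0.09, adjusted p = 0.00759 in limma), 8.52-fold below control. The 4 arrays of FADD lie within a narrower range than those of PPP1R10, with both cultures overlapping. MAT2A, which makes S-adenosylmethionine, had -3.12, -2.75, -2.39 and -2.24 (mean -2.62), with culture 1 below culture 2. UMPS, the enzyme of the last steps of UMP synthesis, had -2.39, -2.57, -2.39 and -2.46, with a mean of -2.45 (SE 0.09, adjusted p = 0.00759 in limma).

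Several of the 15 lowest genes serve the making of RNA and ribosomes. IMP3 (-2.64) and UTP3 (-2.31) belong to the nucleolar machinery that matures the small ribosomal subunit, GEMIN4 (-2.35) to the SMN complex that assembles spliceosomal snRNPs, and TRMT10C (-2.23) to mitochondrial RNase P. DDX28 (-2.61) is a mitochondrial RNA helicase, BOLA1 (-2.25) a mitochondrial protein, and HPS3 (-2.34) a subunit of a complex for lysosome-related organelles. The rest were RTL6 (-2.67) and the transposase-derived TIGD2 (-2.15) and TIGD5 (-2.14), besides the transcription factor SOX4 (-2.17). SOX4 varied the most within these, at -3.33, -2.08, -1.86 and -1.41. Of the 15, 13 were steady, and SOX4 (-2.48) and TIGD2 (-1.86) no longer passed without the culture 1 array with AICAR in Cy5. Of these 13, BOLA1 and GEMIN4 did not pass with arrays scaled to a common spread.

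**Figure D2:**
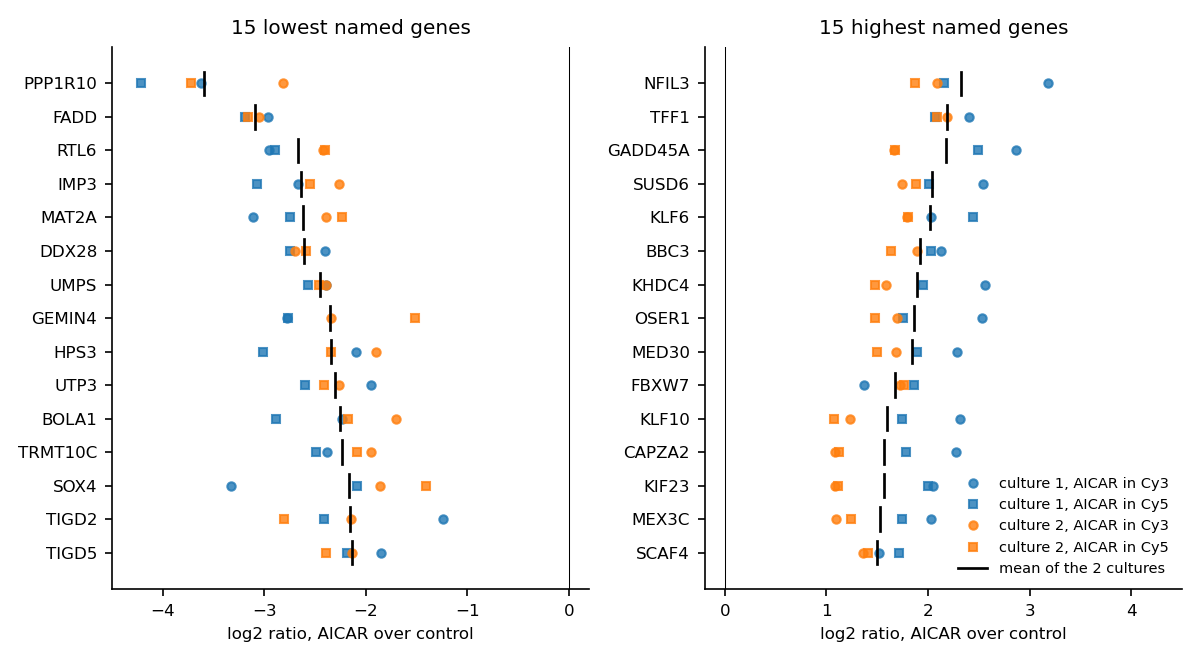
Log2 ratio of AICAR over control on each of the 4 arrays for the 15 lowest and 15 highest named genes past the test. Circles are arrays with AICAR in Cy3, squares those with AICAR in Cy5, and black bars the mean of the 2 cultures; every point lies on the side of 0 of its mean.

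The genes that take AICAR into the cell and convert it did not pass. None of 17 measured genes of uptake and conversion was higher or lower, with log2 ratios from -0.26 to 0.53 and the adenylate kinase AK4 at the top of that range (adjusted p = 0.06 in limma). None of 13 measured AMPK subunits and regulators passed either, and their median was 0.05 beside 0.05 for all named genes. CAMKK1, an upstream kinase of AMPK, had an adjusted p of 0.0463 in limma, but its log2 ratio of -0.56 is within the limit of 0.7. That ratio is the mean of 2 probes that read -0.99 and -0.13, and the first passed by itself. AMPK activity itself is set by phosphorylation and was not measured on these arrays.

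Among 23 measured genes of mTORC1 and energy stress, 2 were higher and 2 were lower. SESN1 and SESN2 encode sestrins, which restrain mTORC1 when amino acids or energy are short. SESN1 had log2 ratios of 1.18, 1.58, 1.35 and 1.23, with a mean of 1.33 (SE 0.10, adjusted p = 0.00922 in limma), and was steady. That mean is over 2 probes that read 0.23 and 2.44, and the first did not pass by itself, so the value rests on 1 probe. SESN2 had 2.43, 0.80, 1.36 and 0.86 (mean 1.36, SE 0.15, adjusted p = 0.0179 in limma), with 1 array of culture 1 far above its dye-swap partner. SESN2 no longer passed without the culture 1 array with AICAR in Cy5 (1.77) or without the culture 2 array with AICAR in Cy3 (1.24). DDIT4, which encodes REDD1, another inhibitor of mTORC1, went the other way, at -1.62, -1.21, -1.17 and -1.26 (mean -1.32, SE 0.10, adjusted p = 0.0102 in limma). RRAGA, a GTPase that brings mTORC1 to the lysosome, had a mean of -1.23 (adjusted p = 0.0117 in limma). DDIT4 was steady.

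Of 49 measured genes of ER folding and degradation, 5 (10.2%) were lower and 1 was higher. XBP1, a transcription factor of the unfolded protein response, had log2 ratios of -2.13, -1.59, -2.21 and -1.70, with a mean of -1.91 (SE 0.10, adjusted p = 0.00759 in limma), 3.75-fold below control. HSPA5, which encodes the ER chaperone BiP, had -1.05, -1.56, -1.57 and -1.51, with a mean of -1.42 (SE 0.11, adjusted p = 0.0101 in limma). HERPUD1, which recruits the degradation machinery at the ER membrane, had -1.81, -1.50, -1.22 and -1.21 (mean -1.43, SE 0.14, adjusted p = 0.0142 in limma). All 12 of these values are below -1. SYVN1, the ubiquitin ligase of ER-associated degradation, and WFS1, a regulator of ER calcium, had means of -1.26 and -0.96, and TXNDC5, a protein disulphide isomerase, had 0.89. The rest of the list did not follow these 5, since the median was 0.09 beside 0.05 for all named genes. Of the 49 ratios 30 were positive, near the 59.6% of all named genes. XBP1 was steady, and it alone of the list passed without the culture 1 array with AICAR in Cy5, where HSPA5 had -1.29, HERPUD1 -1.51, SYVN1 -1.08 and WFS1 -1.01. WFS1 was also lost without the culture 2 array with AICAR in Cy3 (-0.95). With the replicate block HERPUD1 (-1.36), WFS1 (-0.94) and TXNDC5 (0.84) did not pass.

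ER chaperone genes share a promoter sequence, the ER stress element, to which ATF6 and XBP1 are known to bind together with NF-Y. It was searched on both strands of RefSeq promoters (GRCh38.p14, 250 bases before to 50 after the start) as CCAAT and CCACG 9 bases apart, and in its second form as ATTGG and CCACG 1 base apart. The first form is in 0.0806% and the second in 0.0549% of 27305 promoters. Of the list, 10 measured genes hold one of them. They are printed here for the 3 that were lower and for 3 chaperones that did not pass, because the same letters stand in both. Capitals mark the whole element with its spacer, written 5′ to 3′ along the gene's strand.
HSPA5, chr9:125241361-125241439, minus strand: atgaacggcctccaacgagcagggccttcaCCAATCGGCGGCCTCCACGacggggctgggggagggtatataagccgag
XBP1, chr22:28800573-28800651, minus strand: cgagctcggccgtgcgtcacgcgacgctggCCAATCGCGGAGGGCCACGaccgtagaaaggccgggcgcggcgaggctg
HERPUD1, chr16:56931995-56932065, plus strand: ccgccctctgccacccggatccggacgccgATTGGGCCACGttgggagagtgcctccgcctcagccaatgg
CANX, chr5:179698748-179698826, plus strand: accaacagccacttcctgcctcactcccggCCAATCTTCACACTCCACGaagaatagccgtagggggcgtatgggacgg
CALR, chr19:12938359-12938432, plus strand: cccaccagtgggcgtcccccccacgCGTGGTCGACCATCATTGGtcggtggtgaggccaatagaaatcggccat
HSP90B1, chr12:103930186-103930369, plus strand: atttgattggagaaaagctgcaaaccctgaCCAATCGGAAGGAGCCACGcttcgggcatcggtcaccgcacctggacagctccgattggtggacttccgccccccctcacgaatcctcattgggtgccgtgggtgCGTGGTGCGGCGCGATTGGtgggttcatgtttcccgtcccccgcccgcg

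The genes with this element did not share a direction. Besides HSPA5, XBP1 and HERPUD1, the lectin chaperones CANX and CALR had log2 ratios of 0.61 and -0.19 (adjusted p = 0.124 and 0.356 in limma), and HSP90B1, the ER member of the HSP90 family, -0.06 (adjusted p = 0.931), though its promoter holds 2 copies. SDF2L1 had -0.79 (adjusted p = 0.0829 in limma), SERP1 0.58, HYOU1 0.21 and ERO1B -0.02. A match in such a window is a description of letters and no evidence of binding.

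Of 31 measured targets of ATF4 and CHOP, 5 were lower and 2 were higher. DDIT3, which encodes CHOP itself, had log2 ratios of -1.37, -1.39, -0.86 and -1.25, with a mean of -1.22 (SE 0.12, adjusted p = 0.0152 in limma). TNFRSF10B, the TRAIL receptor DR5 and a known CHOP target, had a mean of -1.25, the AP-1 repressor JDP2 -0.83, the neutral amino acid transporter SLC38A2 -0.88 and the secreted STC2 -0.75. The higher pair, BBC3 and GADD45A, are also targets of p53. The median of the list was -0.03, near that of all named genes. DDIT3 did not pass without the culture 1 array with AICAR in Cy5 (-1.21), and only TNFRSF10B and BBC3 of this list did. With the replicate block DDIT3 (-1.07), SLC38A2 (-0.86) and STC2 (-0.68) did not pass. None of 19 measured cytosolic aminoacyl-tRNA synthetases passed, the smallest p being that of RARS1 at -0.55 (adjusted p = 0.0637 in limma).

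Of 28 measured p53 targets, 6 (21.4%) were higher and 3 were lower. Besides GADD45A, BBC3, SESN1 (by 1 of its 2 probes) and FBXW7, the higher ones were MDM2, the ubiquitin ligase that restrains p53, and PPM1D, the phosphatase WIP1. MDM2 had log2 ratios of 0.82, 1.01, 1.18 and 1.52, with a mean of 1.13 (SE 0.14, adjusted p = 0.022 in limma), and PPM1D a mean of 0.82 (adjusted p = 0.0216). FBXW7 had 1.37, 1.86, 1.73 and 1.76, all far from 0, with a mean of 1.68 (SE 0.10, adjusted p = 0.00759 in limma). The lower ones were TNFRSF10B, TP53INP1 (-0.79), which promotes p53 phosphorylation and autophagy, and the polo-like kinase PLK2 (-0.71). The list did not move as one, since its median was 0.15 and 19 members did not pass. Among those 19, the cyclin CCNG1, had 2.49, 1.83, 0.53 and 0.52 (mean 1.34, adjusted p = 0.143 in limma), positive on every array but with its cultures far apart. BBC3, SESN1, FBXW7 and TNFRSF10B were steady. MDM2 (1.08), GADD45A, PPM1D, TP53INP1 and PLK2 did not pass without the culture 1 array with AICAR in Cy5. PLK2 also did not pass with the replicate block (-0.72).

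Among 35 measured genes of the BCL2 family and the death receptors, BBC3 was the only one higher and 4 were lower. Those were FADD, TNFRSF10B, the BH3-only gene BIK (-1.47, adjusted p = 0.0115 in limma) and TNFRSF1A, the main TNF receptor (-1.87, adjusted p = 0.012). The lower genes thus included 2 death receptors and the adaptor of the pathway, and BIK and BBC3, both BH3-only genes, lay on opposite sides of control. All 5 passed without the culture 1 array with AICAR in Cy5. The list did not move as one, since 30 of its 35 members did not pass and its median was 0.02.

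In nucleotide synthesis, the genes past the test were all lower. Of 19 measured genes of pyrimidine and deoxynucleotide synthesis, 3 were lower, namely UMPS, the CTP synthase CTPS1 (-0.75) and the ribonucleotide reductase subunit RRM2 (-0.85). Of 21 measured genes of purine synthesis and salvage, 1 (4.76%, near the background) was lower, PNP, the purine nucleoside phosphorylase (-0.98, adjusted p = 0.0154 in limma). The median of the purine list was 0.08. Besides MAT2A, AMD1, the S-adenosylmethionine decarboxylase of polyamine synthesis, was lower among 18 measured genes of that pathway, at -1.52, -0.77, -1.85 and -1.47 (mean -1.40, adjusted p = 0.0175 in limma). Of these genes, CTPS1, RRM2 and PNP did not pass without the culture 1 array with AICAR in Cy5, nor CTPS1 without that culture's other array or without the culture 2 array with AICAR in Cy3. AMD1 passed without any single array but not with the replicate block (-1.39). None of 17 measured genes of serine and one-carbon metabolism passed, although PSAT1 of serine synthesis had 1.90, 1.77, 0.56 and 0.71 (mean 1.24, adjusted p = 0.0932 in limma), with its cultures far apart.

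The glucose transporter SLC2A1 was lower at -1.25, -2.43, -1.49 and -1.57, with a mean of -1.68 (SE 0.12, adjusted p = 0.00889 in limma), and was steady. LDHA, the lactate dehydrogenase subunit, had -0.91 and PFKFB4, a regulator of glycolytic flux, -1.23, which makes 3 lower and none higher of 26 measured glycolysis genes. In the small list of glucose-sensing arrestins and MondoA partners, ARRDC2 (-1.13) and MLX (-1.12) were lower of 7 measured. Among 29 genes of fatty acid synthesis and oxidation, SREBF1, the transcription factor of lipogenesis, was lower (-1.84, -1.52, -1.06 and -1.11, mean -1.38, adjusted p = 0.0214 in limma). MLYCD, which breaks down malonyl-CoA, was lower too (-1.28), and SCD, the stearoyl-CoA desaturase, was higher (0.88). None of 22 measured sterol synthesis genes passed, and NSDHL had the smallest p (-0.62, adjusted p = 0.0704 in limma). The 2 probes of SCD read 0.62 and 1.13, and neither passed by itself. SREBF1, SCD, MLYCD, MLX, LDHA and PFKFB4 did not pass without the culture 1 array with AICAR in Cy5, whereas SLC2A1 and ARRDC2 did.

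A part of the ribosome biogenesis genes was lower. Of 51 measured biogenesis genes, 12 (23.5%) were lower and none was higher, with a median of -0.26, and 39 of 51 ratios were negative. RRS1, needed for the large subunit, had log2 ratios of -1.97, -2.39, -1.93 and -2.12, with a mean of -2.10 (SE 0.10, adjusted p = 0.00759 in limma). With IMP3 and UTP3 it was among the steady genes. The others were PPAN (-1.84), BYSL (-1.42), NOP16 (-1.39), NOP2 (-1.29), LTV1 (-0.85), GAR1 (-0.83), NOP56 (-0.76) and the RNA polymerase I subunits POLR1E (-0.80) and POLR1B (-0.79). The probes of POLR1B ran from -1.58 to -0.18 and those of NOP56 from -1.26 to -0.40, and not all of them passed singly. With the replicate block GAR1 (-0.84), NOP56 (-0.78) and POLR1E (-0.80) did not pass. Of 70 cytosolic ribosomal proteins, none was lower and 1 was higher, RPS15A at -0.01, 1.18, 0.90 and 1.02 (mean 0.78), whose first array does not share the direction of the rest and which did not pass with the replicate block (0.78). The median of the ribosomal proteins was 0.02. Without the culture 1 array with AICAR in Cy5, 6 biogenesis genes were lower. The E-box CACGTG, a site for MYC and related factors, was in 34.1% of the 44 biogenesis promoters found. It was in 14% of the promoters of lower genes, 10.1% of higher, 9.1% of measured genes and 7.43% of all promoters. It was in 3 of the 10 such promoters of biogenesis genes that were lower. The CCAAT box, searched too, was in 44.7% of promoters of lower, 39.3% of higher and 36.6% of measured genes. For the cell cycle homology region (TTTGAA or TTCGAA) the shares were 13.6%, 14.6% and 13.2%.

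Genes of mitosis and DNA replication were lower in part. Of 51 measured mitosis genes, 12 (23.5%) were lower and 1 was higher, with a median of -0.22. NDC80, a kinetochore subunit, had log2 ratios of -1.91, -1.96, -1.95 and -2.03, with a mean of -1.96 (SE 0.09, adjusted p = 0.00759 in limma), and its 4 arrays hardly differed. The centromeric histone CENPA (-1.81), the protease separase ESPL1 (-1.75), the kinases AURKA (-1.66) and AURKB (-1.37), the cyclin CCNB1 (-1.11), the checkpoint kinase BUB1B (-0.93) and the kinetochore subunits SPC25 (-0.93) and SPC24 (-0.76) were lower as well. The others were CDCA8 (-0.84), CDC25C (-0.81) and NCAPH (-0.78). Against them stood KIF23, at 2.05, 2.00, 1.08 and 1.12. NDC80, CENPA, ESPL1 and AURKA passed without the culture 1 array with AICAR in Cy5. Of 44 measured replication genes, 6 were lower, CHAF1A (-1.13), CDC6 (-0.90), MCM10 (-0.83), FEN1 (-0.80), PRIM1 (-0.74) and RFC4 (-0.72), and the clamp loader subunit RFC3 was higher (1.03, adjusted p = 0.0199 in limma). The 2 probes of RFC3 read 0.03 and 2.02, so its mean rests on 1 probe. None of these 7 passed without that array, and with the replicate block PRIM1 (-0.69), RFC4 (-0.76) and RFC3 (1.11) did not pass.

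**Figure D3:**
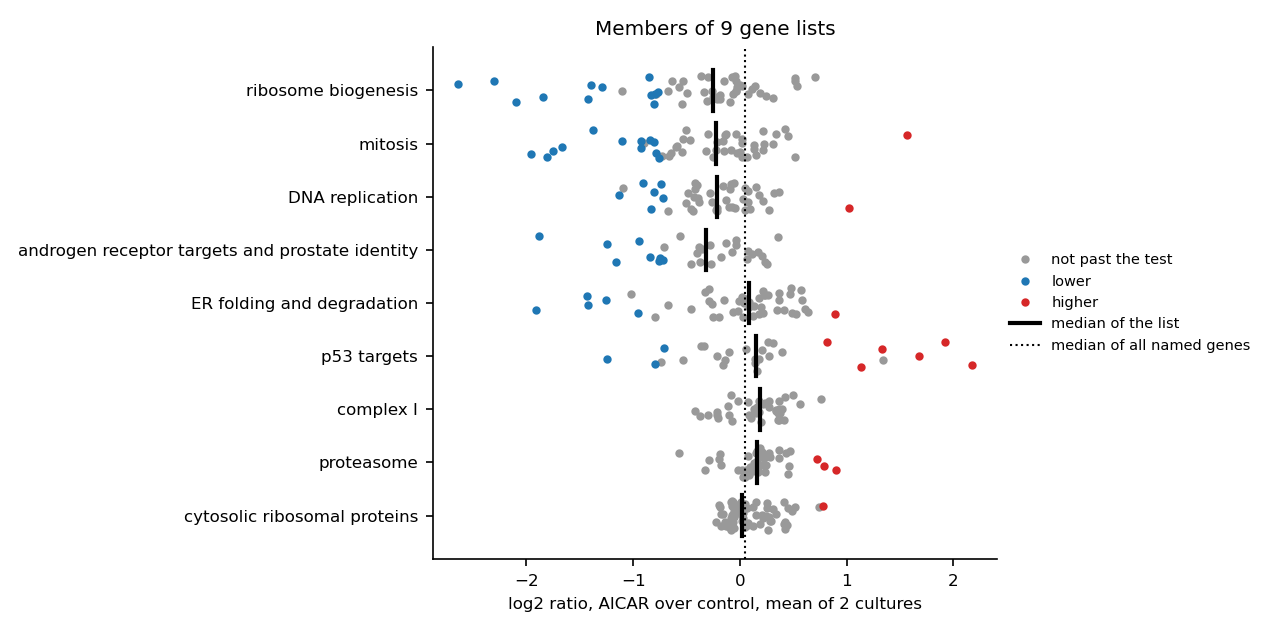
Log2 ratio of AICAR over control, mean of 2 cultures, for the measured members of 9 gene lists, with the vertical position within a row spread at random. Blue points are lower, red points higher and grey points not past the test, black bars are list medians and the dotted line is the median of all named genes; ribosome biogenesis and mitosis have long tails to the left, ribosomal proteins lie close to 0.

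Androgen receptor targets and prostate identity genes were lower or did not pass. Of 30 measured, 8 (26.7%) were lower and none was higher, with a median of -0.32. TMPRSS2, an androgen-regulated serine protease, had log2 ratios of -2.47, -1.91, -1.81 and -1.35, with a mean of -1.88 (SE 0.17, adjusted p = 0.012 in limma). PLPP1, a lipid phosphatase, had -1.24, TMEFF2 -1.16, the metalloreductase-like STEAP1 -0.95, PMEPA1 -0.84, the pioneer factor FOXA1 -0.76, AMACR, the racemase used as a tumour marker, -0.74 and EAF2 -0.72. KLK3, which encodes PSA, had -0.27, -0.45, -0.33 and -0.39, all below 0, with a mean of -0.36 that did not pass (adjusted p = 0.119 in limma), and its neighbour KLK2 had 0.07. The luminal markers FOLH1 (0.36), HOXB13 (-0.45), KRT8 (0.23) and KRT18 (0.18) did not pass. Without the culture 1 array with AICAR in Cy5, TMPRSS2 alone of this list passed. With the replicate block TMEFF2 (-1.19), STEAP1 (-0.92) and FOXA1 (-0.81) did not pass, and of the 2 probes of PMEPA1, which read -1.30 and -0.38, the second did not pass by itself. None of 18 markers of basal, stromal, endothelial and immune cells passed, with ratios from -0.12 to 0.58, and none of 14 neuroendocrine markers, from -0.04 to 0.25. As only ratios were deposited, these lines do not tell how much of any marker was present.

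The zinc finger genes named ZNF with a 3-digit number are the largest list, and 28 of 247 (11.3%) were lower and 4 higher. ZNF443 had log2 ratios of -1.04, -2.22, -2.28 and -2.92 (mean -2.12), ZNF613 a mean of -1.92, ZNF627 -1.87 and ZNF398 -1.84. The higher ones were ZNF263 (0.95), ZNF317 (0.92), ZNF140 (0.76) and ZNF580 (0.74). These genes are alike in sequence, and probes of such families can share signal between members. The median of the list was -0.08, and 6 were lower without the culture 1 array with AICAR in Cy5. With the replicate block ZNF131 (-0.99), ZNF285 (-0.76), ZNF875 (-0.69) and ZNF580 (0.69) did not pass.

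Of 36 immediate early genes, 4 were lower and 3 higher. The MAP kinase phosphatases DUSP4 (-1.75) and DUSP1 (-1.25), IER5 (-1.31) and the AP-1 subunit JUN (-1.18) fell, while KLF6, KLF10 and the mRNA decay factor ZFP36L1 (0.83) rose. JUN had -0.65, -1.38, -1.08 and -1.61, with the AICAR in Cy5 arrays lower in both cultures. Among 31 heat shock chaperones, DNAJB1 (-1.61) and HSPA8 (-1.09) were lower. In splicing, RBM39 (-1.12), SRSF5 (-1.02), SRSF3 (-0.82) and SNRPD1 (-0.70) were lower and the kinase CLK1 (1.14) and HNRNPH1 (0.82) higher, of 54 measured. Of 63 genes of general transcription and Mediator, MED22 (-1.09) and POLR2D (-0.76) were lower and MED30 higher, so 2 Mediator subunits lay on opposite sides. Without the culture 1 array with AICAR in Cy5, only DUSP4, KLF6, DNAJB1, RBM39 and MED30 of the genes in this paragraph passed. With the replicate block JUN (-1.19), ZFP36L1 (0.79), SRSF3 (-0.85) and HNRNPH1 (0.76) did not pass.

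Genes of the respiratory chain did not pass. None of 39 complex I genes and none of 45 genes of complexes II to V was higher or lower. Of their ratios 28 and 35 were positive, beside 59.6% of all named genes, and their medians were 0.19 and 0.16. NDUFV1 had 0.50 (adjusted p = 0.08 in limma), and UQCRB had 0.57 with an adjusted p of 0.0461 but a size within the limit. Among 25 regulators of mitochondrial biogenesis, the mitochondrial transcription factor MTERF3 was lower (-1.17) and YY1 higher (0.99). None of 22 genes of calcium transfer from the ER to mitochondria passed, VDAC2 coming closest (0.62, adjusted p = 0.0369 in limma, within the limit of size). In protein turnover, the proteasome subunits PSMD10 (0.90), PSMD14 (0.79) and PSMD13 (0.72) were higher of 44, with 37 positive ratios, and the ubiquitin-like GABARAPL2 (0.84) and MAP1LC3B (0.87) were higher of 42 autophagy and lysosome genes. None of these 5 passed without the culture 1 array with AICAR in Cy5, and with the replicate block PSMD10 (0.87), PSMD13 (0.64) and MAP1LC3B (0.91) did not pass. The NRF2 targets SRXN1 (-1.16) and HMOX1 (-0.83) were lower of 27, and the histone genes H2AX (-1.66) and H2AZ1 (-0.72) of 70. Of 29 interferon response genes IRF9 was lower (-0.72), of 29 insulin, IGF and FOXO genes PIK3R3 (-1.05) and BCL6 (-0.78), and of 19 clock and D-box genes CSNK1D (-1.30), beside NFIL3, which was higher. BCL6 rests on 1 probe, as its 2 probes read -1.94 and 0.37, and H2AZ1 did not pass with the replicate block (-0.69). The lower shares of the histone (2.86%), general transcription (3.17%), interferon (3.45%) and mitochondrial biogenesis (4%) lists are near the background of all named genes.

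**Figure D4:**
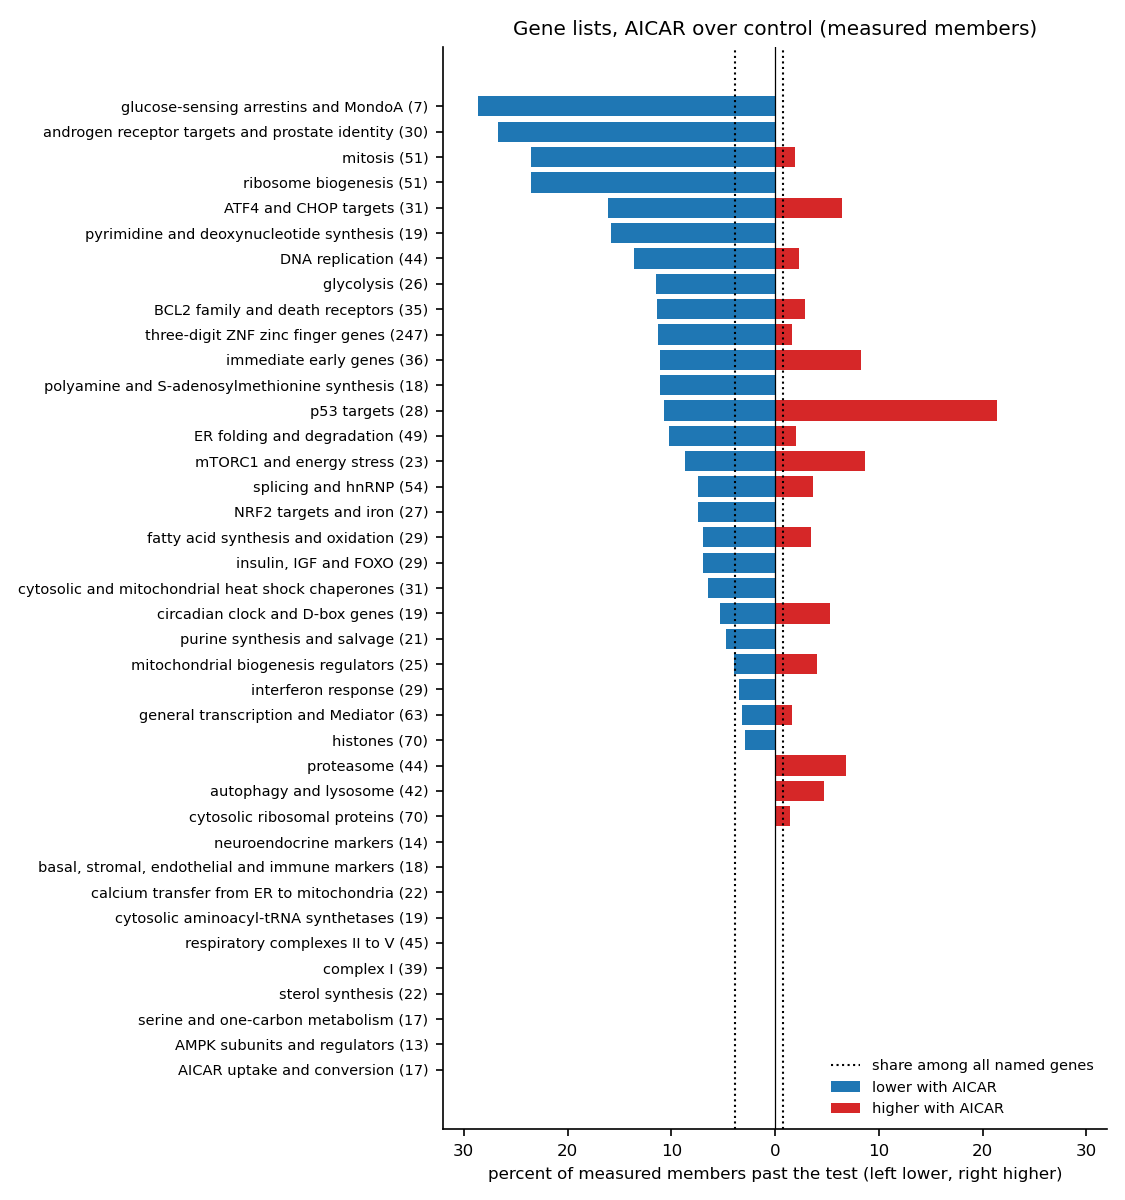
Percent of the measured members (number in parentheses) of 39 gene lists that were lower (blue, to the left) or higher (red, to the right) with AICAR. Dotted lines mark the shares among all named genes, 3.82% lower and 0.773% higher; lists without a bar had no member past the test.

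The arrays that carried AICAR and metformin extracts together show where the drugs differed, with no control RNA in the comparison. They share the AICAR extracts with the arrays above, so the comparisons are not independent. Of 24541 transcripts, 920 (3.75%) were lower and 465 (1.89%) higher with AICAR than with metformin. Among the 14486 named genes, 664 were lower and 355 higher, which is the background for the groups compared with metformin below. Without the direct array of culture 1 with AICAR in Cy5, 179 were lower and 52 higher, and without that of culture 2 with AICAR in Cy3, 205 and 59. The slide numbers of these 2 arrays do not stand apart. Both drugs activate AMPK, metformin through the respiratory chain, and both were given at 5 mM for 24 h, although equal concentrations of unrelated compounds are no equal doses. For metformin over control, the direct arrays called 0 transcripts in limma fitted the same way (3948 at an unadjusted p below 0.05), so values of that comparison are given for description. There the slide numbers of both culture 1 arrays stand apart and those of culture 2 do not, so slide number and culture coincide.

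Some ER stress genes were lower with AICAR than with metformin. Of 49 ER folding genes, 10 were lower and none higher with AICAR than with metformin, and of 31 ATF4 and CHOP targets, 18 were lower and none higher. Without the direct array of culture 1 with AICAR in Cy5, 4 and 8 were lower, and without that of culture 2 with AICAR in Cy3, 5 and 9. DDIT3 was lower with AICAR by a log2 ratio of -5.89 (95% interval -7.06 to -4.73, adjusted p = 0.0237 in limma), beside -1.22 for AICAR and 5.12 for metformin over control. For HERPUD1 the difference was -3.71 (interval -4.70 to -2.71), for XBP1 -2.89 (-3.76 to -2.02) and for HSPA5 -2.14 (-2.39 to -1.89), with 2.49, 1.11 and 1.04 for metformin over control. DDIT4 differed by -4.64 (interval -5.16 to -4.13). These 5 genes had a negative ratio for AICAR over control on every array and a positive one for metformin over control on every array. Of the NRF2 targets, HMOX1 differed by -3.20 and SRXN1 by -3.08, both lower with AICAR. DDIT3, DDIT4, HMOX1 and SRXN1 passed with any single direct array left out, HERPUD1 and XBP1 did not without either of those 2 arrays, and HSPA5 did not without the second.

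The genes highest with AICAR fell into those that differed from metformin and those that did not pass. KLF6 was higher than with metformin by 1.98 (interval 1.55 to 2.40), SUSD6 by 2.10 (1.41 to 2.79), KIF23 by 2.20 (1.91 to 2.49), FBXW7 by 1.64 (1.35 to 1.94) and MDM2 by 0.99 (0.64 to 1.33), each with an adjusted p below 0.05 in limma. For NFIL3 the difference was 0.00 (interval -0.46 to 0.46, adjusted p = 0.997), with 2.32 for AICAR and 2.29 for metformin over control. BBC3 differed by 0.10 (interval -0.31 to 0.51, adjusted p = 0.735) and GADD45A by -0.47 (interval -0.74 to -0.20, adjusted p = 0.0793). SESN2 differed by -1.18 (interval -1.79 to -0.57, adjusted p = 0.0666), which did not pass either, and SESN1, the mean of 2 discordant probes, by 1.00 (interval 0.62 to 1.37, adjusted p = 0.041). KLF6, KIF23 and FBXW7 passed with any single direct array left out, while SUSD6, MDM2 and SESN1 did not without the direct array of culture 1 with AICAR in Cy5 or that of culture 2 with AICAR in Cy3. A difference that did not pass leaves room for any value within its interval.

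**Figure D5:**
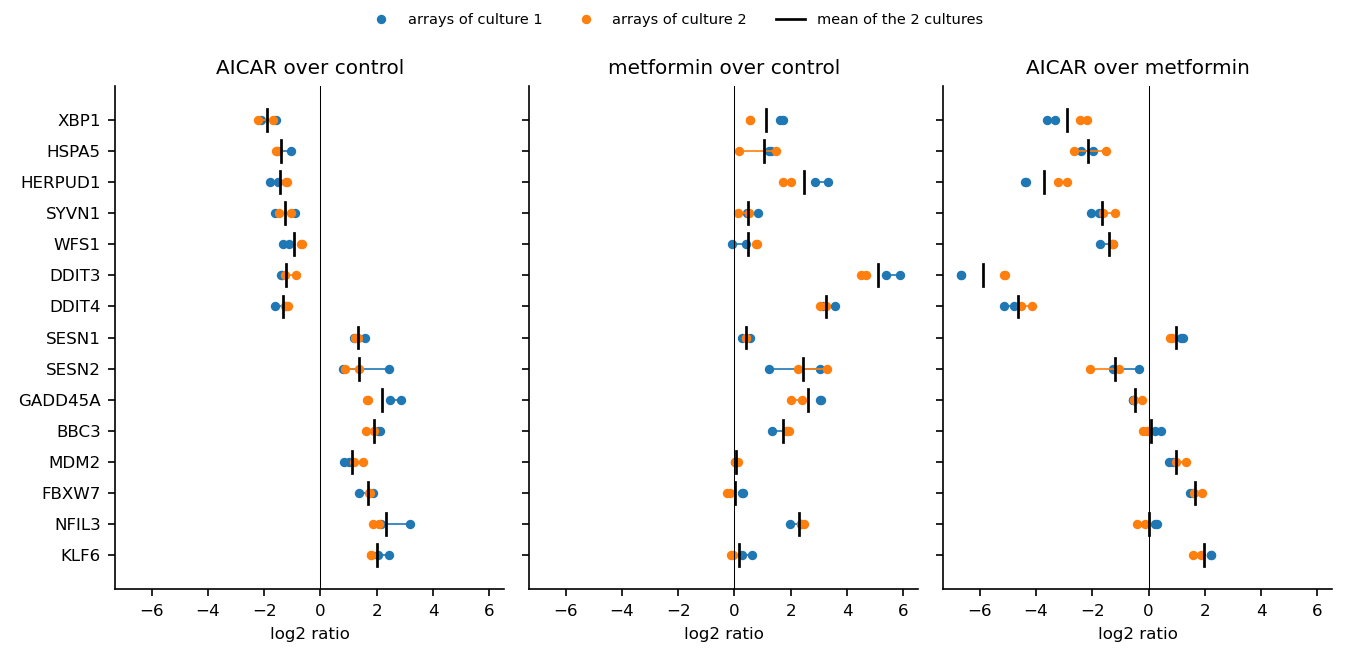
Log2 ratios of 15 genes on the arrays of AICAR over control (left), metformin over control (middle) and AICAR over metformin (right), with blue points for culture 1, orange for culture 2 and black bars for the mean. XBP1, HSPA5, HERPUD1, DDIT3 and DDIT4 lie left of 0 with AICAR and right of 0 with metformin, NFIL3, BBC3 and GADD45A right of 0 with both, and FBXW7 and KLF6 right of 0 with AICAR with means of 0.03 and 0.17 for metformin.

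Of the 15 lowest genes, 12 were lower than with metformin, beside 411 of all 794 transcripts that were lower than in control cells. The AICAR extracts are the same in both comparisons, so genes chosen for low values lean to this side. The other 3 of the 15, IMP3 (-1.41, adjusted p = 0.103 in limma), SOX4 (-1.13, adjusted p = 0.0666) and TIGD5 (-1.04, adjusted p = 0.0592), did not pass. FADD was lower than with metformin by -3.33 (interval -3.67 to -2.98), MAT2A by -2.77 (-3.16 to -2.38) and PPP1R10 by -2.69 (-2.94 to -2.44). TNFRSF1A and SLC2A1, which are not among the 15, differed by -2.37 (-2.78 to -1.96) and -1.74 (-2.21 to -1.26). All 5 had an adjusted p below 0.05 in limma and passed with any single direct array left out.

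Of 44 replication genes, 16 were higher and none lower with AICAR than with metformin, as FEN1 (1.07) and MCM10 (0.74), and so was RRM2 (0.83). These 3 lay below control on all 4 arrays with AICAR and all 4 with metformin. Of 51 mitosis genes, 9 were higher and 2 lower than with metformin, the latter AURKA (-1.02, adjusted p = 0.0287 in limma) and CENPA (-1.26, adjusted p = 0.0237). CCNB1 (-0.02, interval -0.29 to 0.24) and AURKB (-0.09, interval -0.51 to 0.34) did not pass. Outside the mitosis list, PLPP1 of the prostate identity genes (0.03, interval -0.28 to 0.33) did not pass either. In ribosome biogenesis, UTP3, RRS1 and PPAN of 51 measured members were lower than with metformin, and 8 other members were higher. The lower counts of the mitosis and biogenesis lists are near the share of all named genes. Counts in these 3 lists lean on single arrays. Without the direct array of culture 1 with AICAR in Cy5, 3 replication genes, 3 mitosis genes and 1 biogenesis gene were higher, and without that of culture 2 with AICAR in Cy3, 3 of each. Of the lower ones, CENPA alone passed without the first array and UTP3 alone without the second.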

How the data were processed

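The authors deposited log2 ratios (so read; base and direction are not stated), normalized with print-tip loess within and quantiles between slides in limma; its version, the background correction and the intensities are not given in the sources used here. Of 27648 features, 17593 were named with 1 of 14486 symbols through the platform annotation and RefSeq, and 10055 were tested unnamed. Probes of a gene were averaged, ratios were turned to AICAR over control, and dye-swap partners were averaged. limma 3.58.1 in R 4.3.3 tested the 2 culture means (1 residual degree of freedom, 3.85 prior) with Benjamini-Hochberg adjustment over 24541 transcripts, and calls had adjusted p under 0.05 with a log2 ratio above 0.7 or below -0.7. The fit was also run on simulated culture means drawn from its own variances. Those hold no dye or array effect, so they do not bear on the dependence on single arrays. Each array pairs both extracts of a culture, so cultures pair the samples.

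The comparison and the 39 gene lists were chosen with earlier results of these data known, so no list was tested. Named genes are the 15 highest and lowest with 1 sign on all arrays and up to 4 members of each list by p. Other list members past the test, the markers and the genes with an ER stress element were named after their values were seen, and the motif search was widened then.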

Additional observations from a re-analysis of the deposited data

Results flagged for a closer look

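In 2 of 108 genes examined, 1 array stood far from the other 3 of AICAR and control, and chance alone gives about 1 in 20. HSPA5, the ER chaperone BiP, had a log2 ratio of -1.05 on the culture 1 array with AICAR in Cy3 against -1.57 to -1.51 on the other 3. RARS1, the arginyl-tRNA synthetase, which did not pass, had -0.23 on the same array against -0.69 to -0.64. Neither gene has another sign on any array.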

How the results depend on the processing

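Against 148 higher and 794 lower transcripts, the 12 arrays fitted with a replicate block (paired extract levels, treatment and culture) gave 112 and 709 for AICAR against control, and 494 higher and 1126 lower than with metformin. Arrays scaled to a common spread gave 42 and 365, and with them 49 of 98 genes named by rule and 63 of 146 list members passed; median-centred arrays gave 93 higher. With single arrays left out, the counts ran from 21 to 282 higher and 191 to 987 lower, from 44 to 99 named genes and 39 to 195 list members, and against metformin from 52 to 652 higher and 179 to 1223 lower, where the culture 1 array with AICAR in Cy5 and the culture 2 array with AICAR in Cy3 gave the low counts. The cause was not tested. Of the 163 genes followed, 91 no longer passed with scaled arrays, 31 with the replicate block and 113 without the culture 1 array with AICAR in Cy5, while 36 passed under every setting, single probes aside. A called ratio changed sign only for BCL6, whose second probe alone had 0.37. Separate arrays, a dye term, robust variances, named genes only, single probes and adjusted p alone kept all counts within 1.5 times of the main ones.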

Other observations

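Some gene groups stood out only when the calls were read through, and their lists were put together after the values were seen, so they are described without a test. Of 38 measured genes of NF-kappaB and TNF receptor signalling, 8 were lower and 4 higher. Besides FADD and TNFRSF1A, the lower ones were the inhibitors NFKBIA (-2.07, -1.66, -1.70 and -1.66, mean -1.77) and NFKBIE (-1.15), the adaptors MYD88 (-1.62) and TRAF2 (-1.08), the kinase MAP3K14 (-1.06) and BCL3 (-0.83). NFKB1, a subunit of the factor, was higher (1.45, 1.74, 0.92 and 1.45, mean 1.39), as were the chemokine CCL2 (1.48), the mitochondrial dismutase SOD2 (1.09) and BCL10 (0.74). CCL2, SOD2 and NFKBIA are all known targets of NF-kappaB, and the first pair lay on the other side of control from NFKBIA. TNFAIP3, CXCL8, ICAM1 and BIRC3 of the same list did not pass. In all, 26 of the 38 did not pass, and the median was -0.05. Without the culture 1 array with AICAR in Cy5, 4 were lower and 2 higher.

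Of 10 measured genes of the SMN complex, which loads Sm proteins onto snRNAs, 5 were lower, GEMIN4, GEMIN7 (-1.75), GEMIN6 (-1.43), DDX20 (-1.29) and GEMIN2 (-1.18), and STRAP was higher (0.81). Of 14 genes of the RNA exosome and its cofactors, EXOSC3 (-1.79), EXOSC6 (-1.72) and EXOSC9 (-1.07) were lower and C1D higher (1.00). Of 30 nuclear genes listed for mitochondrial RNA processing and DNA maintenance, 12 were lower and none higher. They were led by DDX28, TRMT10C, the nuclease MGME1 (-1.93), PTCD1 (-1.87) and the rRNA methyltransferase MRM2 (-1.82). This list leaves out POLG, TWNK, TFAM and POLRMT. Those are among the 25 regulators of mitochondrial biogenesis above, where MTERF3 alone was lower, so the count does not describe mitochondrial DNA maintenance as a whole. In the 76 mitochondrial ribosomal proteins, 5 were lower and none higher, which is 6.58% beside 3.82% of all named genes. Of 21 genes of lysosome-related organelle complexes, 7 were lower, HPS3, HPS6 (-1.51) and BLOC1S4 (-1.47) the most, and BLOC1S2 was higher (1.03). Without the culture 1 array with AICAR in Cy5, 3 SMN complex genes, 1 exosome gene, 6 mitochondrial RNA genes, 1 mitochondrial ribosomal protein and 2 of these organelle genes were lower.

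The median span in the genome was shorter among the genes that fell far. By RefSeq, the median span was 5.88 kb for the 22 named genes with a log2 ratio below -2, 14.4 kb for the 72 from -2 to -1.5, 14.6 kb for the 197 from -1.5 to -1 and 23.3 kb for the 262 from -1 to -0.7. It was 27.7 kb for genes not past the test and 27.3 kb for those higher. Of the 22, 40.9% span under 5 kb, as IMP3 (1.13 kb), BOLA1 (1.23 kb) and UTP3 (2.02 kb), whereas PPP1R10 (16.8 kb), UMPS (18.8 kb) and HPS3 (44.1 kb) are longer. The share under 5 kb was 14.6% of all 553 lower genes, 8.40% of those from -1 to -0.7 and 13.4% of all named genes. Span was not used to choose genes, it goes with exon number and transcript length, and no cause was tested.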
